A study of Rattus norvegicus with 2 samples.

Results

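The tumour necrosis factor (TNF) superfamily was examined in rat heart. It was taken as the genes whose platform symbol begins with Tnfsf or Tnfrsf, together with Tnf, Lta, Ltb, Ltbr, Fas, Faslg, Cd40, Cd40lg, Cd70, Ngfr, the TRAF adaptors Traf2, Traf3, Traf4 and Traf6, and the TNF-induced gene Tnfaip6. These names gave 39 genes, measured by 44 probes, of 15614 named genes on the array. They comprised 13 ligands, 21 receptors, 4 adaptors and Tnfaip6. Another 4 names of the same choice, Cd27, Tnfaip3, Traf1 and Traf5, had no probe with that symbol and were not analysed here. No filter on low values was applied, so every member with a probe is described.

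The study hybridised RNA from rat heart, labelled with Cy3, against RNA from a pool called mix1, labelled with Cy5, on 2-colour Agilent arrays. Mix1 joined 2 rat cultures, bone marrow cells and primary ear fibroblasts, in proportions not given in the sources used here, whereas the heart material was untreated and had not been cultured. There were 2 heart samples, each on an array of its own against the same pool, and no array with the dyes exchanged. The labels used here give no strain, age or sex, and do not say whether the heart samples came from separate animals. Each p-value therefore rests on how far these samples lie apart, together with a variance pooled over all genes, and on nothing wider. That distance may be technical. Tissue and culture differ together between the channels and cannot be told apart, and any dye bias of a probe has the same sign on both arrays. Values below are log2 ratios of heart over mix1, so that 1 is a 2-fold difference and a negative value means higher in mix1. Means are given ± SD over n = 2 arrays.

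The direction of the deposited ratio is not stated in the sources used here. It was read as heart over mix1 because all 12 cardiac muscle markers examined had positive ratios, from 3.85 for the atrial peptide gene Nppa to 7.23 for Mybpc3. This makes the direction likely, not certain, and the sign of those markers is no result. The base of the logarithm was likewise taken as 2 from the range of the values, and natural logs remain possible. Under natural logs every difference would be larger and every sign the same. No spot intensities were used, so it is unknown which ratios near 0 come from genes below background in both channels.

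TNF superfamily ligands are trimeric proteins, held on the cell surface or shed from it, and they act by clustering their receptors. Some receptors carry a death domain in the cytoplasm and can recruit caspases through adaptors, while others bind TRAF proteins and activate NF-kappaB and stress kinases. Secreted or truncated decoy receptors bind ligand without signalling. In the heart, TNF is best known as an inflammatory cytokine of the stressed or failing myocardium, and many other members are carried by lymphocytes, myeloid cells, bone cells and fibroblasts.

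To show the gene starts behind the largest differences, promoter windows of RefSeq (build GRCr8, from 250 bases before to 50 bases after the annotated start, 300 bases in all) are printed for the pair of members with the largest ratios in each direction that were held in the sequence table. They are Faslg (chr13:76695454-76695753 on the minus strand) and Ltb (chr20:3634005-3634304 on the minus strand), higher in heart, and Tnfrsf12a (chr10:13213599-13213898 on the minus strand) and Tnfaip6 (chr3:56911148-56911447 on the plus strand), lower in heart. Each reads 5′ to 3′ along the gene. Capitals mark matches on either strand to the kappaB consensus, to the TATA element TATAAA or to the AP-1 site TGANTCA, which is its own reverse complement.

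Faslg: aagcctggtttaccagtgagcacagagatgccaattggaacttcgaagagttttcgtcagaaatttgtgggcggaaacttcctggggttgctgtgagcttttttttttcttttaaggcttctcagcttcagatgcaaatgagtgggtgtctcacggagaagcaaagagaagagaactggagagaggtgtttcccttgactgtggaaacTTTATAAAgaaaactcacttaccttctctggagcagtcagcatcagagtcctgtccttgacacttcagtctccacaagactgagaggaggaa
Ltb: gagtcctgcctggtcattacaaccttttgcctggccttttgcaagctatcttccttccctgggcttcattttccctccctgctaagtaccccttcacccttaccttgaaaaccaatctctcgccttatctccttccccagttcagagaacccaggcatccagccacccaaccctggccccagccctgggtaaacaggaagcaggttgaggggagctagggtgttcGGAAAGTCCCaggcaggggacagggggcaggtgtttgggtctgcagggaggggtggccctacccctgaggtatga
Tnfrsf12a: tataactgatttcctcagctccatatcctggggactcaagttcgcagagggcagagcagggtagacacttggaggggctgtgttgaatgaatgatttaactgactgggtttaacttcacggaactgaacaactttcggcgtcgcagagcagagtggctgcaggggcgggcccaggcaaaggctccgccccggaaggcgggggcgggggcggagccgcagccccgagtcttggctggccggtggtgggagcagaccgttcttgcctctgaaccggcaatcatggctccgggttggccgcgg
Tnfaip6: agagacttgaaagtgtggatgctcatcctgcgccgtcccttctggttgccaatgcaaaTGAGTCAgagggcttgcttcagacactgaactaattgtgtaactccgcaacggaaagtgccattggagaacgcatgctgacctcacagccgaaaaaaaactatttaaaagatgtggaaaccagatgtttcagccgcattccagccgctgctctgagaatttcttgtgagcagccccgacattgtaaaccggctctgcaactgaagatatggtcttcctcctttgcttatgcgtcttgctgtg

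In Faslg the capitals are a TATA match, read on both strands in overlapping places, that begins at positions -42 and -40 from the start. In Ltb they are a kappaB match, GGAAAGTCCC, beginning at -25 and read on the reverse strand. In Tnfaip6 they are an AP-1 match, TGAGTCA, at -192, and the Tnfrsf12a window held no match to any of these letters. Over the 29 windows found for 28 of the members, 6 held a kappaB match (20.7%), against 4.81% of 13798 windows of all measured genes and 4.18% of all 33469 windows. The 6 genes were Cd70, Lta, Ltb, Tnfrsf8, Tnfsf14 and Traf3. Lta and Tnfsf14 held the same letters, GGGGCTTCCC, at -93 and -180, and Cd70 and Traf3 shared GGGGATTTCC, at 19 and -10. In Cd70 it overlaps a second match, GGGATTTCCC, read on both strands at 20. By direction, 2 of these windows were among the 6 windows of members higher in heart, 1 among the 16 of members lower in heart and 3 among the 7 of members that did not pass the test. TATA matches were in 7 of the 29 member windows, against 10.9% of the windows of measured genes. Both windows of Tnfrsf22 are among them, and as these overlap, they share a TATA match that is counted in each. AP-1 matches were in 4, against 6.12%, and were those of Fas, Tnfaip6, Tnfrsf1b and Tnfrsf8. A match is a run of letters and not a site shown to be used.

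Of the 39 members, 76.9% passed limma's test in either direction, near the 72.9% of all measured genes. More members were lower than higher in heart. In limma's moderated test, 22 of the 39 members were lower and 8 higher at an adjusted p of 0.05, and 9 did not pass. Of all measured genes, 72.9% were called, 41.5% lower and 31.4% higher, so that 56.4% of the members lower and 20.5% higher can be read against those shares. With a mean of at least 2-fold also required, 17 members were lower and 5 higher (19.5% and 16.9% of all genes). Tested against a 1.5-fold ratio in place of 0, 5 members were higher and 17 lower (19.2% and 23.1% of all genes). Also 17 and 5 members were at least 2-fold apart in the same direction on both arrays (18.3% and 16.3% of all genes). The median ratio of the members was -0.76, beside -0.09 over all genes. In bulk RNA, fewer cells of a type and less RNA per cell cannot be told apart.

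**Figure D1:**
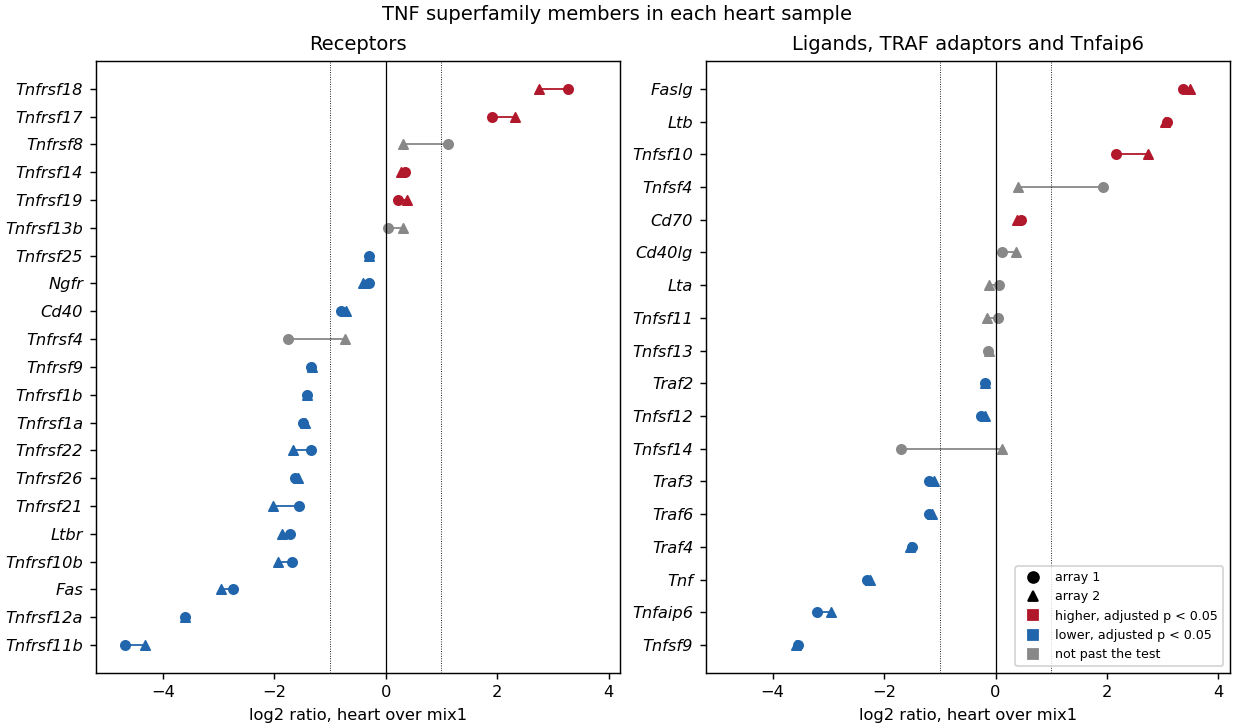
Log2 ratio of heart over mix1 for each TNF superfamily member, with array 1 as a circle and array 2 as a triangle joined by a line; receptors are on the left, and ligands, TRAF adaptors and Tnfaip6 on the right. Colour gives the limma call at an adjusted p of 0.05, dotted lines mark 2-fold, and most receptors lie left of 0 while Faslg, Ltb and Tnfsf10 lie between 2.16 and 3.48.

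Among the ligands, 3 stood at least 2-fold higher in heart. Faslg, the Fas ligand of cytotoxic lymphocytes, had ratios of 3.37 on array 1 and 3.48 on array 2. Ltb, which anchors lymphotoxin alpha to the lymphocyte surface, was at 3.07 and 3.05. Tnfsf10, which encodes the death ligand TRAIL, was at 2.16 and 2.73. Each of these was positive on both arrays, and the array-to-array gap was small beside the ratio. Faslg was 10.7-fold higher (3.43 ± 0.08, adjusted p 0.00124), Ltb 8.34-fold (3.06 ± 0.02, adjusted p 0.0012) and Tnfsf10 5.46-fold (2.45 ± 0.40, adjusted p 0.00797). Cd70, the ligand of CD27 on lymphocytes, was also called higher but by less than 2-fold, at 0.46 and 0.38 (adjusted p 0.0111).

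Tnfsf9 and Tnf were the ligands at least 2-fold lower in heart. Tnfsf9, the 4-1BB ligand that costimulates T cells, was at -3.55 and -3.58. That is an 11.8-fold lower ratio (-3.56 ± 0.02, adjusted p 0.0012). Tnf itself, the founding inflammatory ligand, was at -2.31 and -2.26, 4.88-fold lower (-2.29 ± 0.04, adjusted p 0.00127). Adam17, the protease that sheds TNF from the cell surface, was lower too, at -1.32 and -1.30. Tnfsf12, which encodes TWEAK, was called lower by a small margin, at -0.26 and -0.18 (adjusted p 0.0361).

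The remaining 6 ligands did not pass the test. The bone-resorption ligand gene Tnfsf11 (RANKL) was at 0.05 and -0.15, the lymphotoxin alpha gene Lta at 0.06 and -0.12, and the B cell factor gene Tnfsf13 (APRIL) at -0.14 and -0.12. The CD40 ligand gene Cd40lg, a marker of activated helper T cells, was at 0.12 and 0.36. The arrays disagreed for the other two, which act on T cells. Tnfsf4, the OX40 ligand, was at 1.93 on array 1 and 0.41 on array 2 (adjusted p 0.164), and Tnfsf14, also called LIGHT, at -1.70 and 0.12 (adjusted p 0.351). Over the 13 ligands the median was -0.03, with 4 higher and 3 lower, beside 31.4% and 41.5% of all genes.

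The receptors had a median of -1.33, beside -0.09 over all genes, and ranged from -4.50 to 3.01. Of 21, 14 were lower, 4 higher and 3 did not pass, where 41.5% of all genes were lower and 31.4% higher. At least 2-fold lower were 11, beside 19.5% of all genes. The other lower calls were Cd40, whose probes disagree, and Ngfr and Tnfrsf25, whose calls were lost in the centred fit. The lowest of all members was Tnfrsf11b, which encodes osteoprotegerin, a secreted decoy receptor for RANKL and TRAIL. It was at -4.67 and -4.32, 22.6-fold lower in heart (-4.50 ± 0.25, adjusted p 0.0019). Next came Tnfrsf12a, the TWEAK receptor Fn14 of growing and injured tissue, at -3.61 on both arrays and 12.2-fold lower (adjusted p 0.0012). Its 2 probes were close, with means of -3.63 and -3.59.

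Every one of the 6 receptors with a death domain was called lower in heart, beside 41.5% of all genes. Fas, the receptor of Fas ligand, was at -2.75 and -2.95, 7.21-fold lower (-2.85 ± 0.14, adjusted p 0.00182), and its 2 probes were at -2.68 and -3.02. The TRAIL receptor gene Tnfrsf10b was at -1.69 and -1.92 (3.50-fold lower), and Tnfrsf21, which encodes death receptor 6, at -1.56 and -2.02 (3.46-fold lower). Tnfrsf1a, the main and widely expressed TNF receptor, was at -1.48 and -1.44, 2.75-fold lower (adjusted p 0.00164). The other 2 were within 2-fold of mix1 on both arrays. Ngfr, the low-affinity neurotrophin receptor, was at -0.29 and -0.40, and Tnfrsf25, which T cells carry, was at -0.30 and -0.29. With each array centred on its median, in a fit that took no account of each gene's own spread, neither passed (adjusted p 0.176 and 0.286).

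Of the receptors that signal through TRAF proteins without a death domain, Ltbr and Tnfrsf1b were also lower. Ltbr, the lymphotoxin beta receptor of stromal and myeloid cells, was at -1.73 and -1.86, 3.46-fold lower (adjusted p 0.00208). Tnfrsf1b, the TNF receptor typical of blood and endothelial cells, was at -1.42 and -1.41, 2.66-fold lower (adjusted p 0.0016). Cd40, the receptor of B cells and other antigen-presenting cells, averaged -0.76 (adjusted p 0.00488), but that mean joins probes that contradict each other. One Cd40 probe was at -2.11 and -2.02 and the other at 0.50 and 0.59, and each passed the test over all probes (adjusted p 0.00227 and 0.0116). Its direction is therefore not settled here. For comparison, 3767 genes on the array had several probes. In 38.1% of these the probe means lay 2-fold or more apart, and in 29.9% they lay on opposite sides of 0. Cd40 was the only one of the 5 members with 2 probes to meet either description. Tnfrsf19, a receptor of stem and progenitor cells, was called slightly higher at 0.23 and 0.38. Its call was also lost in the centred fit (adjusted p 0.0735), although centring raised the mean to 0.37.

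Receptors of lymphocytes were divided. Tnfrsf18, the GITR receptor found on regulatory and activated T cells, was the highest receptor, at 3.28 and 2.75, 8.06-fold higher in heart (3.01 ± 0.37, adjusted p 0.0051). Tnfrsf17, the BCMA receptor of plasma cells, was at 1.92 and 2.32, 4.34-fold higher (2.12 ± 0.28, adjusted p 0.00585). Both were above 2-fold on each array with a spread of less than 1 between arrays. Tnfrsf14, the HVEM receptor of T cells, was called higher by a small amount, at 0.35 and 0.28. It did not pass in the centred fit (adjusted p 0.0632), although centring raised its mean to 0.38. In the opposite direction, Tnfrsf9, the 4-1BB receptor of activated T cells, was at -1.34 and -1.33, 2.52-fold lower in heart (adjusted p 0.0017). Not past the test were Tnfrsf4 (OX40, also of activated T cells) at -1.76 and -0.73 and Tnfrsf8 (CD30) at 1.11 and 0.30. Nor did Tnfrsf13b (TACI, found on B cells) pass, at 0.04 and 0.30. Tnfrsf22 and Tnfrsf26, grouped here with the decoy and other receptors and not with those of lymphocytes, lie next to each other in the genome. Both were lower, at -1.33 and -1.66 and at -1.64 and -1.57.

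The adaptors and Tnfaip6 were all called lower in heart, beside 41.5% of all genes. Traf4 was at -1.49 and -1.54, 2.86-fold lower (adjusted p 0.00165). Traf6, which also serves interleukin-1 and Toll-like receptors, was at -1.19 and -1.14, and Traf3, a brake on the non-canonical NF-kappaB route, at -1.20 and -1.10. Traf2, the adaptor of the TNF receptors, differed little, at -0.19 on both arrays, and its call was lost after centring (adjusted p 0.593). Tnfaip6 encodes TSG-6, a hyaluronan-binding protein secreted after TNF or interleukin-1. It was at -3.20 and -2.95, 8.42-fold lower in heart (-3.07 ± 0.18, adjusted p 0.00205), with its 2 probes at -2.72 and -3.43.

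Ligands were then set beside their own receptors. The 15 ligand and receptor pairs, with both partners measured, were a chosen list and not all possible pairs. For example, Lta with Tnfrsf1a or Tnfrsf1b was left out. In 4 pairs the ligand was higher and the receptor lower in heart, 4 had both lower, and in 7 at least 1 partner did not pass. Of all genes, 31.4% were higher and 41.5% lower, and whether these pair counts exceed what such shares would give was not tested. The 4 opposed pairs were Faslg (3.43) with Fas (-2.85), Ltb (3.06) with Ltbr (-1.79), and Tnfsf10 (2.45) with its receptors Tnfrsf10b (-1.81) and Tnfrsf11b (-4.50). The pairs with both partners lower were Tnf (-2.29) with Tnfrsf1a (-1.46) and with Tnfrsf1b (-1.41), Tnfsf9 (-3.56) with Tnfrsf9 (-1.33), and Tnfsf12 (-0.22) with Tnfrsf12a (-3.61). The Tnfsf12 call was lost after centring (adjusted p 0.489). Tnfsf11 (-0.05) lay near 0 beside its decoy Tnfrsf11b, and Tnfsf13 (-0.13) lay near 0 beside its plasma cell receptor Tnfrsf17 (2.12). Each value is a ratio between the channels for its own gene, so it does not say which partner was the more abundant. Several of these pairs share a partner, so they are not independent of each other.

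**Figure D2:**
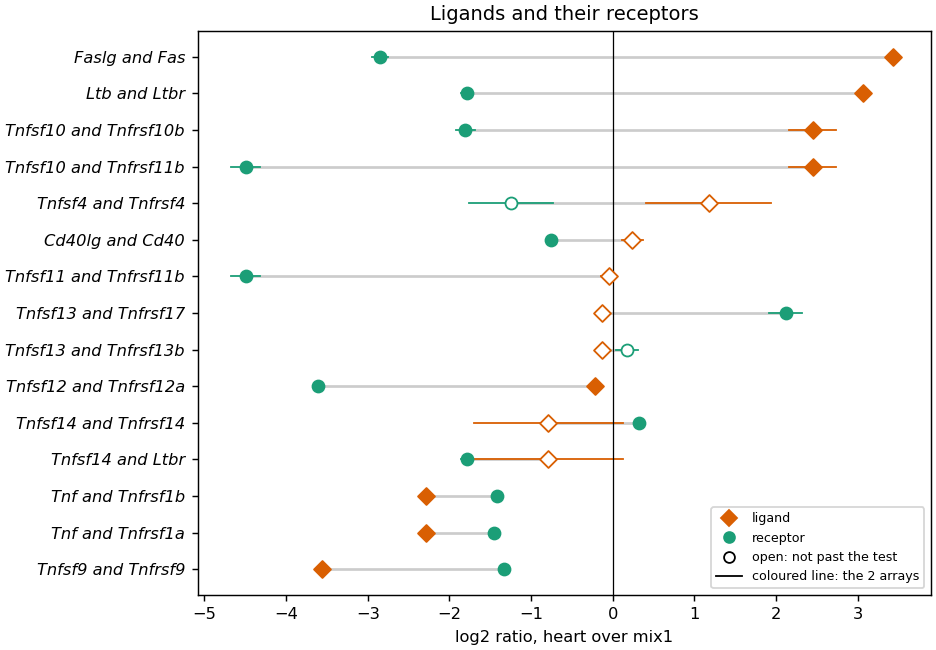
Mean log2 ratio of heart over mix1 for 15 pairs, with the ligand as a diamond and the receptor as a circle on the same line; coloured lines span the 2 arrays, and open symbols did not pass limma's test at an adjusted p of 0.05. In the upper rows the ligand lies right of 0 and the receptor left of it, as for Faslg (3.43) and Fas (-2.85).

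Members that are neighbours in the genome did not always share a direction. Lta, Tnf and Ltb stand in a row on rat chromosome 20 with no protein-coding gene between them in the RefSeq annotation (GRCr8), and their means were -0.03, -2.29 and 3.06. On chromosome 5, Tnfrsf4 (-1.25, not past the test) adjoins Tnfrsf18 (3.01), and Tnfrsf1b (-1.41) adjoins Tnfrsf8 (0.71, not past the test). On chromosome 9, Tnfsf9 (-3.56), Cd70 (0.42) and Tnfsf14 (-0.79, not past the test) lie within the same short stretch. With 1 gene between them on chromosome 13, Tnfsf4 was at 1.17 (not past the test) and Faslg at 3.43. Other neighbours had like ratios, namely Tnfrsf26 and Tnfrsf22 on chromosome 1 (-1.60 and -1.50), Tnfsf13 and Tnfsf12 on chromosome 10 (-0.13, not past the test, and -0.22), and Ltbr and Tnfrsf1a on chromosome 4 (-1.79 and -1.46, with 1 gene between).

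For most members the 2 heart samples were close. The median absolute difference between arrays was 0.11 over the members and 0.08 over all genes, and 36 of the 39 members had the same sign on both arrays. The 3 that changed sign were Lta, Tnfsf11 and Tnfsf14 (10.5% of all genes did). The arrays were at least 2-fold apart for 3 members, beside 2.16% of all genes: Tnfsf14, Tnfsf4 and Tnfrsf4. Tnfsf4 was higher on array 1, and Tnfsf14 and Tnfrsf4 were higher on array 2. Tnfrsf8 came close to that gap, at 1.11 on array 1 and 0.30 on array 2. Most lung epithelial markers also differed between these arrays, with a median of 0.06 on array 1 and 3.74 on array 2 over 8 genes, and the surfactant gene Sftpc at 0.84 and 6.68. The exception was Napsa, the only one of them past the test, at 3.22 and 3.59. The T cell gene Cd3e was at 2.44 and 0.16. Their part in the differences of Tnfsf4, Tnfsf14, Tnfrsf4 and Tnfrsf8 was not tested. Of the members called at least 2-fold, Tnfsf10 and Tnfrsf18 had the largest gaps between arrays, and they ran in opposite directions.

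**Figure D3:**
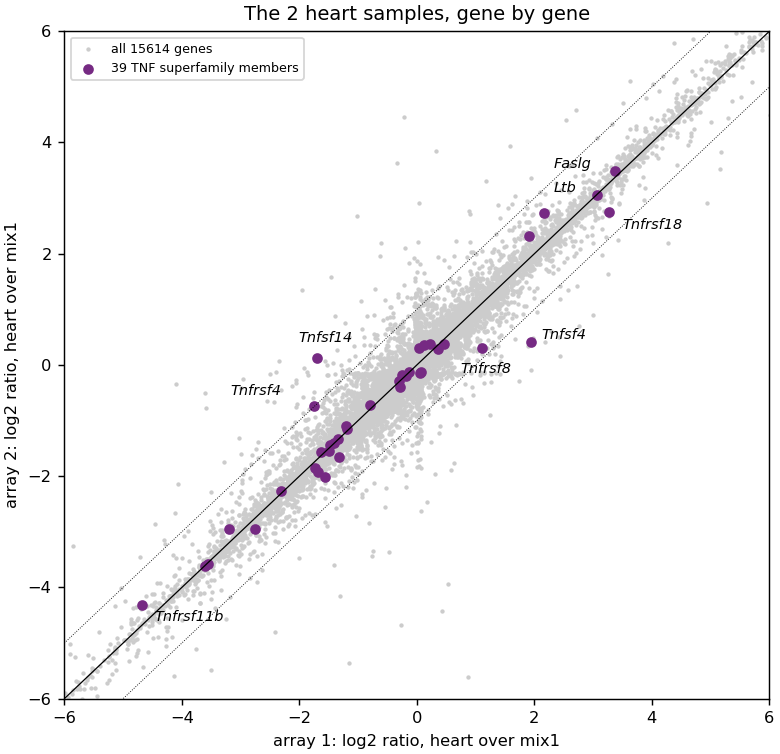
Log2 ratio of heart over mix1 on array 1 (horizontal) against array 2 (vertical) for all 15614 genes in grey and the 39 members in purple; the solid line is equality, dotted lines are 2-fold apart, and genes beyond the axis limits are not drawn. Most members lie along the line, while Tnfsf14, Tnfrsf4 and Tnfsf4 lie outside the dotted lines and Tnfrsf8 just inside.

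Markers of the cell types that carry these genes gave the following ratios, where 31.4% of all genes were higher and 41.5% lower. Of 12 T and NK cell markers, 11 were higher in heart and Cd3e did not pass, with a median of 2.80, from 0.44 for Lck to 6.15 for Cd3g. The cytotoxic granule genes Prf1 and Nkg7 were at 3.05 and 3.03, beside 3.43 for Faslg. Among other members carried by lymphocytes, Ltb (3.06) and Tnfrsf18 (3.01) were higher and Tnfrsf9 (-1.33) lower. Tnfrsf4 (-1.25) and Cd40lg (0.24) did not pass. Of the 4 measured B cell and plasma cell markers, Ms4a1 (1.36) and Cd22 (0.94) were higher, and Cd79b (-0.14) and Blnk (-0.15) did not pass, beside 2.12 for the plasma cell receptor Tnfrsf17. All 10 fibroblast markers were lower in heart, with a median of -4.91 and a range from -8.36 to -1.57, beside -4.50 for Tnfrsf11b and -3.61 for Tnfrsf12a. All 10 endothelial markers were higher (median 2.65). Of 12 macrophage and monocyte markers, 6 were higher, 5 lower and Csf1r did not pass, with a median of 0.18, beside -2.29 for Tnf. They ranged from the lipopolysaccharide receptor gene Cd14 at -3.81 to the haemoglobin scavenger receptor gene Cd163 at 1.88, with the complement gene C1qb at 1.25. Of 5 osteoclast markers, 4 were lower, among them Ctsk (-2.83) and Acp5 (-2.68), while Calcr did not pass. Of the 7 osteoblast and marrow stroma markers, 4 were higher, such as Alpl (2.91), and 3 lower, such as Spp1 (-8.74). Of 7 granulocyte markers, 4 were higher, with S100a9 at 6.07, 2 lower, and Mpo did not pass. The part of any of these cell types in the ratios of the members was not tested.

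Among the lists of genes downstream of the receptors, the induced targets had the median furthest from 0. Of 24 textbook TNF-induced genes, which other stimuli also induce, 16 were lower in heart, 7 higher and Tnfaip2 did not pass. Over all genes 41.5% were lower and 31.4% higher. The median of the list was -2.77, beside -0.09 over all genes. The lowest were the matrix protease gene Mmp3 (-8.94 and -10.32), the neutrophil chemokine gene Cxcl2 (-7.38 and -7.42), Ccl20 (-7.07 and -7.04) and the monocyte chemokine gene Ccl7 (-6.90 and -6.88). The cytokine genes Il1b (-3.90) and Il6 (-2.63) and the adhesion gene Icam1 (-2.91) were also lower. The 7 higher genes included Ccl5 (5.05 and 5.27), a chemokine also made by cytotoxic lymphocytes, and the endothelial adhesion genes Sele (2.95 and 2.75) and Vcam1 (1.06 and 1.06). Cxcl10, which interferon also induces, was at 2.48 and 2.53.

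Among 16 NF-kappaB subunits, kinases and inhibitors, 12 were lower and 2 higher (41.5% and 31.4% of all genes), and Chuk and Rela did not pass. At least 2-fold lower were 4 of the 16, beside 19.5% of all genes. Those were Nfkbiz (-2.55), Nfkbie (-2.42), Tnip1 (-1.73) and Bcl3 (-1.45), which encode inhibitors and atypical regulators of NF-kappaB. The subunit genes Nfkb1 (-0.21), Nfkb2 (-0.56) and Rel (-0.42) were lower by less than 2-fold. After centring, 7 of this list were lower and 1 higher, in a fit whose share over all genes is not given here. Of 19 receptor-proximal signalling genes, 8 were lower and 7 higher (median 0.05), near the shares of all genes (41.5% and 31.4%). The kinase gene of necroptosis Ripk3 (-3.79 and -3.75), the TNF receptor adaptor gene Tradd (-2.11 and -2.07) and Ripk1 (-1.71 and -1.58) were lower. The highest were the caspase inhibitor gene Xiap (1.82 and 1.68), Cflar, which encodes a decoy of caspase-8 (1.43 and 1.47), and Birc2 (1.30 and 1.29). Birc3, of the same family as Xiap and Birc2, was lower at -0.41, and Casp8 was at -0.51 and -0.82. Cradd, Map3k7, Rbck1 and Tab2 did not pass.

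**Figure D4:**
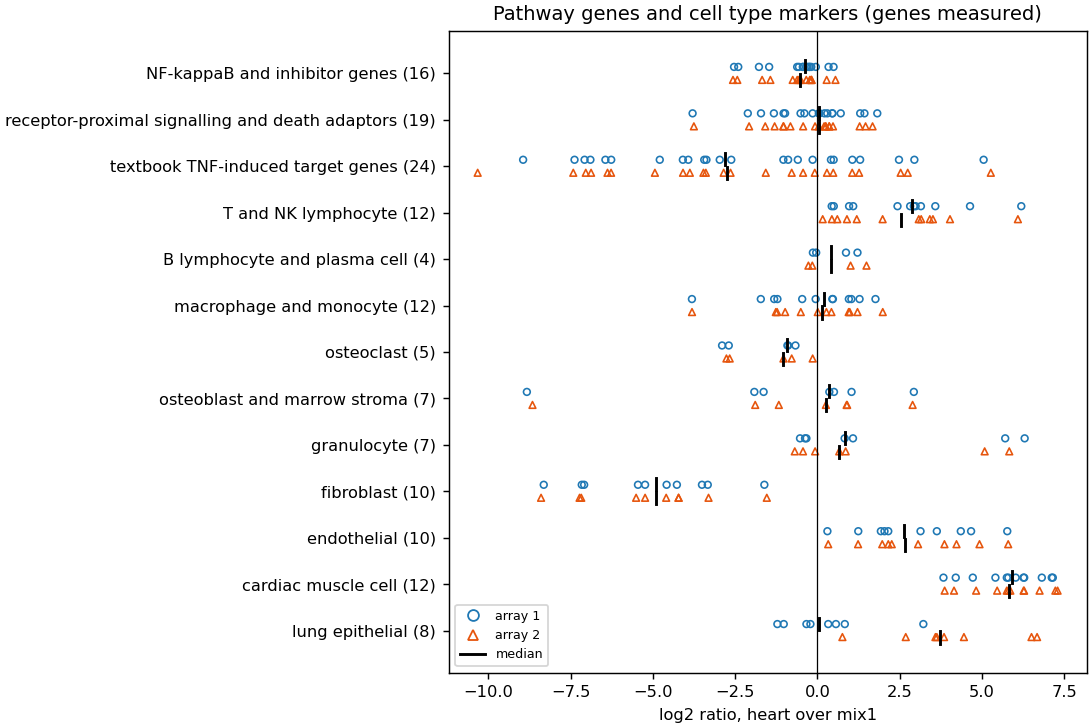
Log2 ratio of heart over mix1 for each gene of 3 pathway lists (upper rows) and 10 cell type marker lists, with array 1 as circles, array 2 as triangles, the median as a black bar and the number of genes measured in brackets. TNF-induced targets have a median of -2.77, T and NK cell markers 2.80 and fibroblast markers -4.91, and most lung epithelial markers differ between arrays.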

How the data were processed

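Per the submitters' processing notes, the authors used Agilent Feature Extraction, whose version, background correction, dye normalization and genome build are each not given in the sources used here. For each of 40012 probes the deposited table held 1 log ratio per array, with no missing value. The authors' deposited values were taken as log2 from their range, and the column medians were 0.01 and -0.14. No depth or intensity was used here, so precision rests on there being only 2 arrays.

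The platform annotation named 1 gene for 20417 probes, several for 0 and none for 19595. Symbols were updated to the GRCr8 gene table by accession (16987 probes matched, 38 of the 44 member probes), and the probes of a gene were averaged. The gene test was that of limma 3.58.1, run under R 4.3.3 (lmFit with an intercept, then eBayes, two-sided, 1 residual degree of freedom and 1.24 prior degrees of freedom), with Benjamini-Hochberg adjustment over all 15614 genes and a threshold of 0.05. Mix1 was the only control, so its own spread does not enter the test of the ratio against 0. The code was tested on simulated data. Named members are all those measured; of each pathway list, the largest called ratios and all genes not past the test are named, and genes beyond that were chosen after their values were seen, as were the TATA and AP-1 motifs. The members and lists were chosen with earlier results of these data known. Alternatives were centring, natural logs, 1 probe per gene (that with the smallest difference between arrays), platform symbols, a robust prior, a test against 1.5-fold and each array alone.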

Additional observations from a re-analysis of the deposited data

How the results depend on the processing

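With platform symbols as given, a robust prior variance or values read as natural logs, all 39 members kept their direction and side of the threshold in limma's test, and with 1 probe per gene 38 did; Tnfsf13 then passed (adjusted p 0.0461), and Cd40 moved from -0.76 to -2.06. Centring each array on its median ended the calls of Ngfr, Tnfrsf14, Tnfrsf19, Tnfrsf25, Tnfsf12 and Traf2 and brought in Tnfrsf4, Tnfrsf8, Tnfsf14 and Tnfsf4, which gave 20 members lower and 8 higher. The share of all genes called in the centred fit is not given here, and the shares of the main fit do not apply to it. The centred fit had infinite prior degrees of freedom and so took no account of each gene's own spread. The 4 members it brought in are those whose arrays differed most. Among the calls it ended, Tnfrsf14 and Tnfrsf19 had moved away from 0, from 0.32 to 0.38 and from 0.31 to 0.37. The shift alone therefore did not end their calls. Against a 1.5-fold ratio, 5 members were higher and 17 lower, the 8 lost being Cd40, Cd70 and the 6 that centring also ended. The NF-kappaB list had 7 lower and 1 higher after centring and 1 higher with 1 probe per gene; the cause was not tested. On a single array, with no test, 5 to 7 members were at least 2-fold higher and 17 to 19 lower. At the level of probes, 24 member probes were lower and 8 higher, and the share over all probes is not given here. The higher probes are not those of the same 8 genes. In limma's test over all probes, Tnfrsf19 did not pass (adjusted p 0.0519), while the Cd40 probe with a mean of 0.55 did. Tnfsf12 and Traf2 also did not pass there (adjusted p 0.0518 for each). No paired analysis was possible because the labels give a single group of heart samples, each measured against the same pool. Without intensities, signal over background cannot be given for any ratio.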

Other observations

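Superfamily genes and an adaptor whose symbols fall outside the members, looked up after the member values were seen, were lower in heart or did not pass limma's test. Relt, an orphan receptor of lymphoid tissue, was at -0.84 on both arrays (adjusted p 0.00277), and Traf7 at -1.39 and -1.43 (adjusted p 0.0017). The ectodysplasin receptor genes Eda2r and Edar were at -0.26 and -0.36 (adjusted p 0.0243) and at -0.45 and -0.15 (adjusted p 0.116), and the ligand gene Eda at 0.24 and 0.06 (adjusted p 0.169).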
